A study of Mus musculus with 59 samples.

Results

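Peaks of 2 histone marks named for predicted genes and for RIKEN cDNA clones were examined in mouse uterus across 4 age groups. A peak belonged to the set when the gene name that the deposited table gives it consists of Gm and digits, or ends in Rik, and when it lies on chromosomes 1 to 19 or X. This rule took 3731 of 25827 H3K4me3 peaks (14.4%) and 7324 of 54354 H3K27ac peaks (13.5%), and it used no measured value. The tissue was endometrium snap-frozen in pieces from C57/B6 mice, with no genetic change or treatment named for any group. Young mice were 9 to 11 weeks old (n = 7), aged group 1 was 28 to 36 weeks old (n = 4), aged group 2 was 42 to 48 weeks old (n = 6) and aged group 3 was 54 to 65 weeks old (n = 10). Each animal gave a library for each mark, 27 per mark, by immunoprecipitation of native chromatin from 20000 nuclei.

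Gm names are given to predicted gene models and Rik names to cDNA clones whose gene has no functional name, so the set holds long noncoding RNAs (lncRNAs), pseudogenes, small RNAs and some protein-coding genes that have not been characterised. H3K4me3 marks the start sites of transcribed genes, and H3K27ac marks active starts as well as active enhancers. Many lncRNAs start next to a protein-coding gene and run away from it on the opposite strand, and others start at enhancers, so marks at such names often report on a neighbouring gene or enhancer as much as on the transcript itself.

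Levels are log2 RPKM after quantile normalization, changes are log2 differences between group means ± standard error (SE) of the model, and a peak was called when its limma p, adjusted over every peak of the mark, was under 0.05. Positions are on GRCm38. Total reads per library ran from 6.835 M to 48.29 M for H3K4me3 (median 10.022 M) and from 7.604 M to 16.945 M for H3K27ac (median 11.162 M). The tissue was checked against fixed marker lists: Esr1 (3.81 in aged group 3 and 3.92 in young) and Pgr (4.18 in aged group 3 and 4.15 in young), the receptors for oestrogen and progesterone, carried H3K4me3 at both ages. Of the 11 fixed uterus markers 6 had an H3K4me3 promoter peak under their own name. The other 5 (Hoxa10, Hoxa11, Hoxd10, Hoxa13 and Emx2) had none under it, and 0 of 3 ovary markers and 1 of 4 testis markers had one. Peaks named for another gene were not counted, so a marker without a peak of its name may still have one at its start. Of the 6 uterus markers with a peak, Hoxd11 was called lower in aged group 3 (-1.29 ± 0.28, adjusted p = 0.00187) and 0 higher. In H3K4me3, 15 of 18 measured epithelial markers were called higher and 12 of 14 stromal markers lower in aged group 3 than in young. Also lower were 5 of 10 smooth muscle and 2 of 2 measured mesothelial markers, while 2 of 7 leukocyte markers (Cytip by 1.67 and Laptm5 by 1.30) were higher, and of 7 endothelial markers 1 was higher and 1 lower. The part of these cell types in the results was not tested. The difference between the mean epithelial and the mean stromal marker level ran from -1.16 to 2.30 in aged group 3 (median 1.43) and from -1.08 to 0.03 in young (median -0.76), and in H3K27ac from -1.24 to 1.76 in aged group 3 (median 1.09) and from -1.09 to 0.19 in young (median -0.97). Aged group 3 replicate 10 stood at the young end of this score in both marks. In such bulk tissue, fewer cells of a type and less of a mark per cell cannot be told apart.

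Promoter sequences are shown for 6 named members that have a window in the RefSeq table of GRCm38.p6 and whose own start lies in the called peak. Gm3045 and 9230116L04Rik carried more H3K27ac in aged group 3, and the other 4 carried less H3K4me3. Each run holds 250 bases before to 50 bases after the start, on the strand of the transcript, and capitals mark every match, on either strand, to 6 motifs: the TATA box (TATAAA), the CCAAT box, the GC box of Sp1-like factors (GGGCGG), the cAMP response element (TGACGTCA), a forkhead site (TGTTTAC) and a nuclear receptor site (AGGTCA).
Gm3045 (chr13:56426336-56426635, + strand): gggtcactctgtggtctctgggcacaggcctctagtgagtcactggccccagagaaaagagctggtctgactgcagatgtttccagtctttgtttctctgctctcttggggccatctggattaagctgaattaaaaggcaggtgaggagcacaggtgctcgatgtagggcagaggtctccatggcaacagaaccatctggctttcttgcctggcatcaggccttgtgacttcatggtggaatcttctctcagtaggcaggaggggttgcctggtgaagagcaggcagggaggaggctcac
9230116L04Rik (chr12:79103890-79104189, - strand): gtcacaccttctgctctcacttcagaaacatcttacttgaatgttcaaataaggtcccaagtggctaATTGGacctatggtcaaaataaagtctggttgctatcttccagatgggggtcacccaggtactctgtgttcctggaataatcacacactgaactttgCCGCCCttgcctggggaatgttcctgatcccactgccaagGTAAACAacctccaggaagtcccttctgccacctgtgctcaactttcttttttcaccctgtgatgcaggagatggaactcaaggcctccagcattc
2810410L24Rik (chr11:120189807-120190106, - strand): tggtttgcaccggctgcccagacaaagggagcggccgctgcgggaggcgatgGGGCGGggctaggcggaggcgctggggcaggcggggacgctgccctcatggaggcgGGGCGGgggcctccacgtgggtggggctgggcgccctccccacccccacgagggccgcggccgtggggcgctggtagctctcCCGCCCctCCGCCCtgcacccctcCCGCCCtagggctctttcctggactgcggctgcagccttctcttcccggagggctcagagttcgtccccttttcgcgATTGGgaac
2900052L18Rik (chr11:120231568-120231867, - strand): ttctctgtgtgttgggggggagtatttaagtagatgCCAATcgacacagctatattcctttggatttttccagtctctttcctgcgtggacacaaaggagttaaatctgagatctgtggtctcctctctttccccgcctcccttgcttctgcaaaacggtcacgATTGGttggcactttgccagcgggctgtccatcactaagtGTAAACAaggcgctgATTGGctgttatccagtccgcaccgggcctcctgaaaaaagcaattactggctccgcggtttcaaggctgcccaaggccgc
Gm19610 (chr5:91074886-91075185, - strand): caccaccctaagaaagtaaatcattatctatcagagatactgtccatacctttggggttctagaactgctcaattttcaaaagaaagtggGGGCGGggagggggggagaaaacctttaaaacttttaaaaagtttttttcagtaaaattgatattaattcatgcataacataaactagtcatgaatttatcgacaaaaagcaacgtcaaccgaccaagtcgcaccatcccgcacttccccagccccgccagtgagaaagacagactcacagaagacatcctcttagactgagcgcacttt
2410018L13Rik (chr12:23010194-23010493, - strand): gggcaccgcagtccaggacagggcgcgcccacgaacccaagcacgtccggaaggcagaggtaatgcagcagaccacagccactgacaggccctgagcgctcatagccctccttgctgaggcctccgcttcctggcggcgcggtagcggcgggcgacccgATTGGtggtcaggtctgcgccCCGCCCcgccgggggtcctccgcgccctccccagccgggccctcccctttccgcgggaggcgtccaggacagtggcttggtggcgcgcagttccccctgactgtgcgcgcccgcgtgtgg

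The 6 sequences differ most in CpG content. The window of 2810410L24Rik has 74.0% GC, 27 CpG dinucleotides and 5 GC boxes, and that of 2410018L13Rik has 72.7% GC and 31 CpG. Those of Gm3045 and 9230116L04Rik have 1 CpG each, and the Gm3045 window (54.7% GC) holds 0 of the motifs searched. In all 32619 RefSeq promoter windows, the GC box is found in 35.9%, the CCAAT box in 37.6%, the nuclear receptor site in 16.2%, the TATA box in 13.7%, the forkhead site in 3.67% and the cAMP response element in 1.8%. Matches to different motifs may share letters, and a match is a description of the letters, not a site.

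CpG content also varied over the whole set. Member promoters inside an H3K4me3 peak (2651 windows) had a median GC content of 58.7% and a CpG observed-to-expected ratio of 0.619, and 49.8% held GGGCGG, against 47.0%, 0.198 and 7.14% in the 9718 member promoters outside such peaks. Promoters of other genes inside an H3K4me3 peak were richer still, with 61.7%, 0.759 and 65.8%. Among member promoters that lie in a peak of their own name, the median CpG count was 8 in 93 windows whose peak was called higher in aged group 3, 14 in 157 windows called lower and 15 in 562 not called. These groups were not tested against each other.

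The H3K4me3 set held 3039 names, of which 2207 were Gm and 832 Rik, and 2554 had a single peak. RefSeq listed 1845 of them: 1174 as lncRNA, 317 as protein-coding, 247 as pseudogenes, 37 as transcribed pseudogenes and 45 as snRNA. The H3K27ac set held 4203 names, 3253 Gm and 950 Rik, and RefSeq listed 1524 as lncRNA, 481 as pseudogenes and 320 as protein-coding. Of 4812 names in either set, 2430 had peaks of both marks. Members made up 19.9% of H3K4me3 peaks on chromosome 18, the highest share, and 10.2% on chromosome 11, the lowest. In H3K27ac the share was lowest on chromosome X, at 9.61%, and highest on chromosome 13.

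Member H3K4me3 peaks were weaker and narrower than the others, with a median level of 2.37 log2 RPKM against 2.78, a median width of 1413 bases against 1774 and a median of 69 reads against 130. In H3K27ac the medians were 1.20 against 1.21 log2 RPKM, 1840 against 1844.5 bases and 47 against 48 reads. Within the H3K4me3 set the median level was 2.66 at Rik and 2.27 at Gm names, and 2.57 at protein-coding members, 2.22 at lncRNAs and 1.98 at pseudogenes. The highest member was the peak named Gm45112 at chr7:120634152-120636763, which holds the start of Uqcrc2, a subunit of mitochondrial complex III. It averaged 5.13 ± 0.11 log2 RPKM (SD, n = 27), and its change with age was 0.05 ± 0.05 (adjusted p = 0.51). Gm16675, a lncRNA, was next in both marks, at 5.10 in H3K4me3, and Gm20539 stood highest in H3K27ac at 3.60.

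At the other end stood Gm11168, Gm10721 and Gm10719 on chromosome 9, whose H3K4me3 peaks had a median of 0 to 4 reads per library. Gm10718 beside them had 45 reads, with levels from 0.21 to 4.89 over the 27 libraries. These names lie next to each other at the start of the assembled chromosome, and 0 of their 5 H3K4me3 peaks and 0 of 1 H3K27ac peak were called (smallest adjusted p in H3K4me3 = 0.308).

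Members lay farther from protein-coding starts than other peaks did. Of H3K4me3 members, 24.4% (912) lay within 1 kb of a protein-coding start, against 50.2% of other peaks. Another 32.9% lay 20 to 100 kb away and 18.1% over 100 kb away, against 19.9% and 9.74% of other peaks. In H3K27ac the shares within 1 kb were 11.5% against 21.6%, and those over 100 kb away were 24.6% against 16.5%. Members within 1 kb of a coding start had a median H3K4me3 level of 3.73, against 3.72 at other peaks in that range. The medians were 2.18 against 2.07 at 1 to 5 kb and 2.22 against 1.93 at 5 to 20 kb. Farther out they were 2.03 against 1.82 at 20 to 100 kb and 1.80 against 1.80 over 100 kb away.

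**Figure D1:**
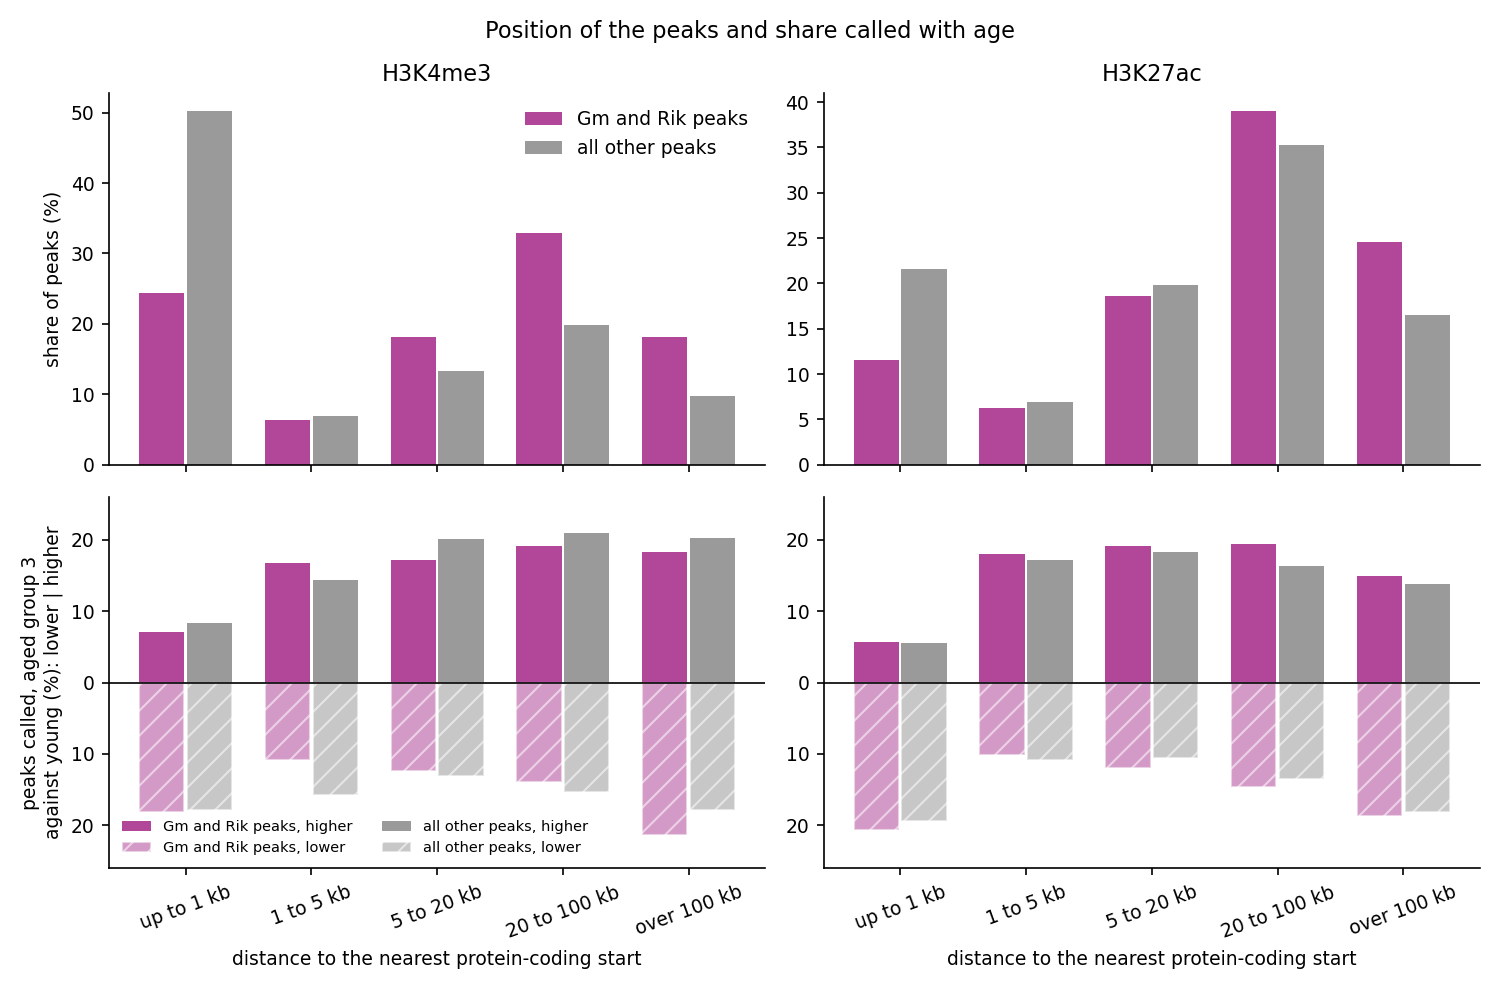
Position and calls of member peaks (Gm and Rik names) and of other peaks, for H3K4me3 (left) and H3K27ac (right). The upper panels give the share of peaks (%) in 5 classes of distance to the nearest protein-coding start, and the lower panels the share of each class called higher (above 0) or lower (below 0) in aged group 3 than in young. In the class up to 1 kb, 7.13% of H3K4me3 members were called higher and 18.2% lower.

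Of 2281 H3K4me3 member peaks with a RefSeq start, 1081 (47.4%, exact binomial 95% interval 45.3 to 49.5) lay within 1 kb of the start of their own name, against 57.2% (56.5 to 57.9) of peaks at other names. In H3K27ac these shares were 27.4% (26.2 to 28.8) and 26.3% (25.8 to 26.7). A window of 5 kb gave 64.4% of H3K4me3 members and 50.4% of H3K27ac members. At 299 H3K4me3 members the peak lay near both its own start and a protein-coding start, and in 292 of these the pair ran on opposite strands. An H3K27ac peak overlapped 2925 member H3K4me3 peaks (78.4%, 77.0 to 79.7), against 81.3% (80.8 to 81.8) of other H3K4me3 peaks. The intervals cover counting of peaks alone, and peaks of a name are not independent.

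Aged group 3 was compared with young to ask which of these peaks carried more or less of a mark in the oldest uteri. Of the H3K4me3 members, 1172 (31.4%) were called, 579 higher (15.5%) and 593 lower (15.9%), beside 30.7% of all peaks, 14.2% higher and 16.4% lower. Over 2-fold, 248 of 3731 members were higher and 182 lower, beside 1430 (5.54%) and 1131 (4.38%) of all 25827 peaks. In H3K27ac, 2357 members (32.2%) were called, 1215 higher (16.6%) and 1142 lower (15.6%), beside 29.3% of all peaks, 14.4% higher and 14.9% lower. Over 2-fold, 545 of 7324 were higher and 208 lower, beside 3067 (5.64%) and 1459 (2.68%) of all 54354 peaks. The median change over the members was -0.02 in H3K4me3 and -0.04 in H3K27ac, against -0.02 and -0.06 over all peaks. The called shares lie near those of all peaks and set the members apart in neither mark. Counts over 2-fold were not tested against those of all peaks.

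The counts moved with the marker score described above. They are given for the members alone, without the shares of all peaks in the same fits. With that score as a covariate, 40 H3K4me3 and 12 H3K27ac members were called, and the score and age overlap in these libraries, so that its part cannot be told apart from that of age. Without aged group 3 replicate 10 the counts were 1431 and 3110. With the digit that opens the library code as a factor they were 381 and 209, and with the series of the mouse number as a factor 553 and 1113. Almost all young mice bear lower numbers than most aged mice, so the number series overlaps with age too.

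Calls were spread unevenly over positions. Of the 912 H3K4me3 members within 1 kb of a coding start, 65 were called higher and 166 lower. Of the 2819 farther away, 514 were called higher and 427 lower. All peaks of the mark showed the same split, with 993 higher and 2138 lower within 1 kb and 2682 higher and 2108 lower beyond. Members upstream of their named gene were called higher in 90 (23.9%) and lower in 31 (8.24%) of 376 cases. Members at their own start were called higher in 119 and lower in 205 of 1081 cases. Of all H3K4me3 peaks 14.2% were called higher and 16.4% lower. Of all peaks over 1 kb from a coding start these shares were 19.4% and 15.2%. The share for other peaks upstream of their genes is not given, so the upstream members are not compared with peaks of like position. Of 1517 lncRNA members 16.6% were called higher and 18.1% lower, of 300 pseudogenes 18.7% and 12.7%, and of 390 protein-coding members 13.6% and 12.3%. Rik names with the clone prefixes used for testis libraries had 14.0% higher and 17.7% lower of 328 peaks. These differences between kinds of member were not tested.

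Gm2619, a transcribed pseudogene on chromosome 1, had the strongest H3K4me3 gain (chr1:85324353-85327626, at its own start). Levels ran from 0.61 to 3.90 (median 2.63) in aged group 3 and from -2.87 to -0.49 (median -1.81) in young, or 44 to 583 reads in aged group 3 and 4 to 19 reads in young. The groups did not overlap, and the change was 3.98 ± 0.40 (adjusted p = 2.07e-07). Gm2619 also led the H3K27ac members, with levels from -0.09 to 2.20 (median 1.64) in aged group 3 and from -3.76 to -1.21 (median -2.32) in young, a change of 3.78 ± 0.36 (adjusted p = 4.08e-07). With the marker score as a covariate both calls held, at adjusted p = 0.000555 and 0.00125.

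Gm2619 lies in a stretch of chromosome 1 that holds Sp100, Sp110 and Sp140, genes of nuclear body proteins induced by interferon. All 7 member H3K4me3 peaks of 5 names in this stretch were called higher in aged group 3, by 0.57 (Gm17017) to 3.98 (Gm2619). Of 13 member H3K27ac peaks there, 9 were called higher and 0 lower. C130026I21Rik, listed as protein-coding, had 3 H3K4me3 peaks, higher by 1.70 ± 0.42, 2.49 ± 0.36 and 2.84 ± 0.48 (adjusted p = 0.00449, 4.03e-05 and 0.000214). Its H3K27ac peak at chr1:85196487-85201024 held -0.24 to 1.98 (median 1.56) in aged group 3 and -2.06 to -0.56 (median -1.24) in young, a change of 2.41 ± 0.36 (adjusted p = 0.000269). A630001G21Rik at chr1:85734603-85736718 was the most strongly marked, averaging 4.17 in aged group 3 and 3.14 in young, a change of 1.03 ± 0.17 (adjusted p = 0.000177).

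Gm16025, beside Gm2619 at chr1:85328909-85330371, ran in H3K27ac from -0.10 to 2.19 (median 1.62) in aged group 3 and from -2.86 to -0.61 (median -1.25) in young, a change of 2.74 ± 0.35 (adjusted p = 3.1e-05). At the other names of the stretch H3K4me3 was called higher at Sp140 (0.60 ± 0.18, adjusted p = 0.0147) and AC147806.2 (0.99 ± 0.38, adjusted p = 0.0496), with changes of 0.33 ± 0.14 at Sp110 (adjusted p = 0.0767) and -0.39 ± 0.17 at Sp100 (adjusted p = 0.0717). H3K27ac was called higher at Sp110 (1.24 ± 0.39, adjusted p = 0.0197) and AC147806.2 (0.73 ± 0.24, adjusted p = 0.0275), with changes of 0.29 ± 0.18 at Sp140 (adjusted p = 0.214) and -0.23 ± 0.16 at Sp100 (adjusted p = 0.253). The mouse Sp100 region holds near-identical copies, and how reads that match several copies were placed is not given in the sources used here, so the levels of single peaks in it are uncertain.

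**Figure D2:**
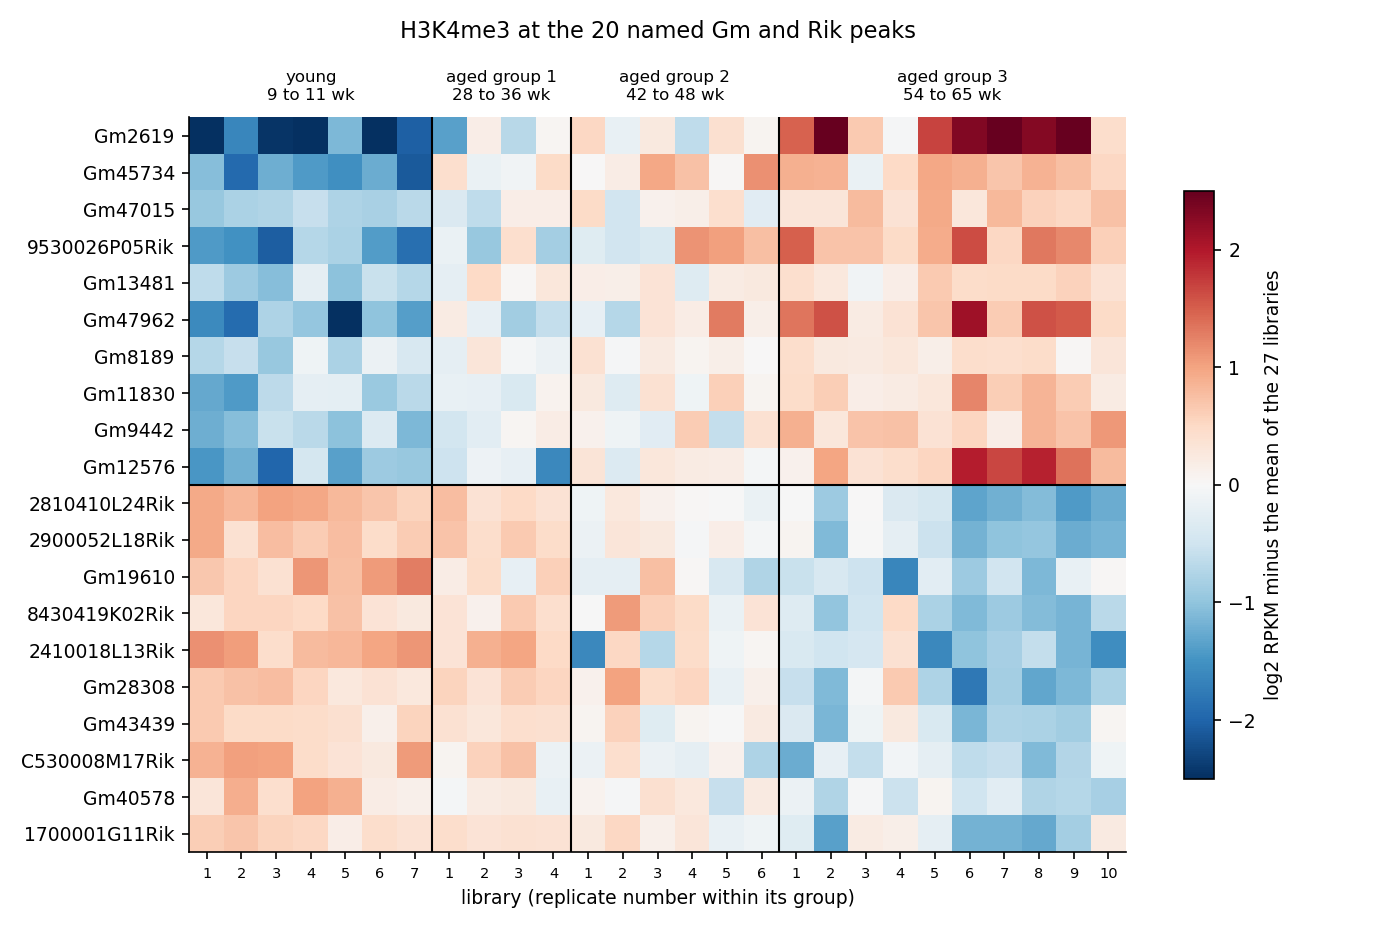
H3K4me3 in each of the 27 libraries (columns, by age group and replicate number) at the 20 member peaks with the smallest p for aged group 3 against young (rows, 10 higher above the line and 10 lower under it). Colour is the log2 RPKM minus the mean of the 27 libraries. Gm2619 spans the widest range, with aged group 3 at 0.61 to 3.90 log2 RPKM and young at -2.87 to -0.49.

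The other H3K4me3 peaks with the strongest gains lay over 1 kb from a protein-coding start. 9530026P05Rik, a lncRNA, gained H3K4me3 at chr6:92987192-92988782, 42742 bases from the start of Adamts9, a metalloprotease of the extracellular matrix. Its levels were 2.34 to 3.48 (median 2.67) in aged group 3 and -0.20 to 1.15 (median 0.45) in young. The change was 2.35 ± 0.27 (adjusted p = 1.55e-06) with no overlap of the groups. The Adamts9 start averaged 4.46 in aged group 3 and 4.40 in young, a change of 0.06 ± 0.07 (adjusted p = 0.514). The H3K27ac peak of 9530026P05Rik rose too, to 1.23 to 2.86 (median 2.13) in aged group 3, against -1.43 to 0.56 (median 0.07) in young (2.17 ± 0.27, adjusted p = 2.33e-05).

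Gm47962 (chr10:84456914-84458614) lies 16246 bases from the start of Nuak1, a kinase of the AMPK family. Its H3K4me3 ran from 1.39 to 3.30 (median 2.20) in aged group 3 and from -1.33 to 0.41 (median -0.19) in young, with no overlap (2.50 ± 0.31, adjusted p = 4.34e-06), while the change at the Nuak1 start was 0.05 ± 0.08 (adjusted p = 0.632). Gm11830 (chr4:11146559-11147970) lies 8471 bases from Trp53inp1, a p53-induced regulator of stress responses and autophagy. It held 3.66 to 4.72 (median 4.02) in aged group 3 and 2.07 to 3.26 (median 2.83) in young (1.30 ± 0.16, adjusted p = 5.33e-06), and the Trp53inp1 start changed by -0.06 ± 0.07 (adjusted p = 0.57). The difference between each peak and the neighbouring start was itself not tested.

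Gm12576, a lncRNA peak at chr11:83814839-83815644, held 1.55 to 3.40 (median 2.34) in aged group 3 and -0.54 to 1.01 (median 0.25) in young. The groups did not overlap, and the change was 2.19 ± 0.28 (adjusted p = 6.3e-06).

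The gains further included Gm47015, Gm13481, Gm8189 and Gm9442. Gm47015 (chr10:79416653-79417869) held 2.74 to 3.41 (median 3.00) in aged group 3 and 1.51 to 1.87 (median 1.68) in young (1.32 ± 0.15, adjusted p = 1.4e-06). Gm13481, a lncRNA peak at chr2:48332419-48333474, held 2.84 to 3.59 (median 3.37) in aged group 3 and 1.87 to 2.70 (median 2.21) in young (1.11 ± 0.13, adjusted p = 1.7e-06). The narrow ranges within each group made these changes among the clearest of the set, and the groups did not overlap at either. Gm8189, a pseudogene peak at chr19:8517601-8519225, was the best covered of the 10 with a median of 262 reads, and held 3.84 to 4.28 (median 4.10) in aged group 3 and 2.85 to 3.71 (median 3.24) in young (0.82 ± 0.10, adjusted p = 5.08e-06). Gm9442, a pseudogene 4136 bases from Mgarp, held 2.01 to 2.92 (median 2.55) in aged group 3 and 0.61 to 1.49 (median 0.81) in young (1.50 ± 0.19, adjusted p = 5.54e-06) and had no H3K27ac peak.

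Gm45734, a pseudogene peak at chr8:72032075-72033077, lies 2153 bases from its own start and 22407 bases from that of Cyp4f18, a cytochrome P450. Its H3K4me3 ran from 1.12 to 2.25 (median 2.10) in aged group 3 and from -0.81 to 0.23 (median -0.12) in young, or 23 to 57 reads in aged group 3 and 5 to 14 reads in young. The groups did not overlap (2.18 ± 0.22, adjusted p = 2.32e-07), and its H3K27ac rose by 1.31 (adjusted p = 0.00614).

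Losses were led by a pair of lncRNAs beside Bahcc1, a chromatin protein that reads H3K27me3. 2810410L24Rik (chr11:120186549-120190679), whose CpG-rich promoter is printed above, held 1.86 to 3.29 (median 2.28) in aged group 3 and 3.83 to 4.30 (median 4.12) in young. The loss was -1.63 ± 0.17 (adjusted p = 2.38e-07) with no overlap of the groups. Its H3K27ac held 0.10 to 1.88 (median 0.84) in aged group 3 and 2.40 to 3.12 (median 2.61) in young (-1.73 ± 0.19, adjusted p = 4.36e-06), and both calls held with the marker score as a covariate (adjusted p = 0.00309 for H3K27ac).

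The H3K4me3 peak of 2900052L18Rik (chr11:120228974-120232081) lies 789 bases from the Bahcc1 start and held 1.42 to 2.74 (median 1.68) in aged group 3 and 3.04 to 3.60 (median 3.30) in young (-1.39 ± 0.17, adjusted p = 4.34e-06). Its H3K27ac was 0.40 to 1.55 (median 0.92) in aged group 3 and 1.76 to 2.13 (median 1.92) in young (-0.99 ± 0.16, adjusted p = 0.000463). Bahcc1 itself fell to a mean of 2.23 in aged group 3, against 3.56 in young (-1.32 ± 0.15, adjusted p = 1.7e-06). Over the stretch, 3 of 4 member H3K4me3 peaks and 4 of 5 member H3K27ac peaks were called lower, along with 2 of 2 and 4 of 4 other peaks. The coding start nearest to 2810410L24Rik, that of Slc38a10 at 35198 bases, averaged 3.95 in aged group 3 and 3.99 in young (-0.04 ± 0.06, adjusted p = 0.629).

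Losses at other lncRNA starts were seen at Gm19610 and 2410018L13Rik. Gm19610 (chr5:91074262-91074996) held -0.20 to 1.46 (median 0.93) in aged group 3 and 1.81 to 2.71 (median 2.17) in young (-1.43 ± 0.24, adjusted p = 0.000177). 2410018L13Rik (chr12:23009005-23010857), with a CpG-rich promoter, held -0.38 to 1.59 (median 0.51) in aged group 3 and 1.66 to 2.37 (median 2.20) in young (-1.67 ± 0.28, adjusted p = 0.000212). Neither pair of groups overlapped, and both calls held with the marker score as a covariate. C530008M17Rik (chr5:76856286-76857954) held 0.15 to 1.33 (median 0.80) in aged group 3 and 1.62 to 2.46 (median 2.25) in young (-1.26 ± 0.22, adjusted p = 0.000301), and Gm40578 fell by 0.99 (adjusted p = 0.000392).

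In 2 of the 10 losses the peak named for a member holds the start of a developmental gene. The peak of Gm28308 (chr6:52210663-52214161) holds the start of Hoxa3, a homeobox factor, and that of Gm43439 (chr3:37347800-37350211) the start of Fgf2, a fibroblast growth factor. Gm28308 held 1.47 to 3.90 (median 2.44) in aged group 3 and 3.52 to 4.04 (median 3.79) in young (-1.28 ± 0.22, adjusted p = 0.000214). Gm43439 held 1.65 to 3.05 (median 2.22) in aged group 3 and 2.92 to 3.45 (median 3.28) in young (-0.98 ± 0.17, adjusted p = 0.000224). In both, 9 of 10 aged libraries lay under every young library, and which transcript the mark belongs to cannot be told from the peak.

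8430419K02Rik (chr11:18870026-18872175) lies 147476 bases from Meis1, a homeobox factor, whose start changed by 0.04 ± 0.08 (adjusted p = 0.726). The lncRNA peak held 1.36 to 3.03 (median 1.67) in aged group 3 and 2.77 to 3.25 (median 3.02) in young (-1.15 ± 0.19, adjusted p = 0.000183), with 9 of 10 aged libraries under every young library. 1700001G11Rik, 15009 bases from Ptk2b, fell by 1.06 (adjusted p = 0.000549) with 8 of 10 under. With the marker score as a covariate 15 of the 20 named H3K4me3 calls held. The 5 that did not kept their direction, with changes of -0.71 at 8430419K02Rik (adjusted p = 0.144), -0.63 at Gm28308 (adjusted p = 0.216), -0.42 at Gm43439 (adjusted p = 0.246), -0.96 at C530008M17Rik (adjusted p = 0.106) and -0.24 at 1700001G11Rik (adjusted p = 0.493).

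**Figure D3:**
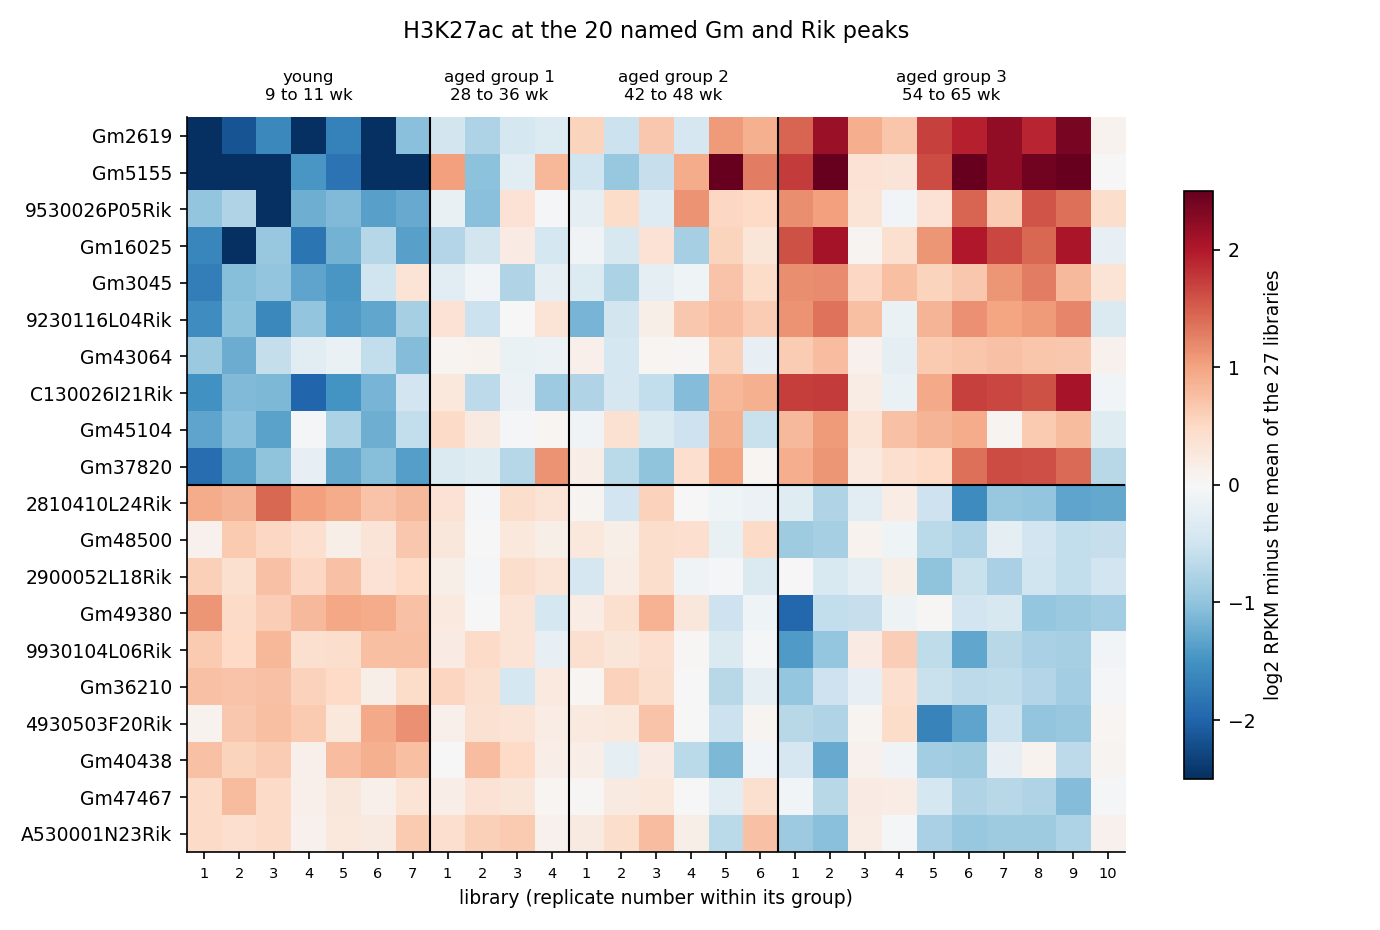
H3K27ac in each of the 27 libraries (columns, by age group and replicate number) at the 20 member peaks with the smallest p for aged group 3 against young (rows, 10 higher above the line and 10 lower under it). Colour is the log2 RPKM minus the mean of the 27 libraries. Gm5155 spans the widest range, with aged group 3 at -0.10 to 2.82 log2 RPKM and young at -4.64 to -1.55.

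Among the H3K27ac gains, Gm5155 (chr7:17902149-17904520), a protein-coding gene model on chromosome 7, had the highest fold. It held -0.10 to 2.82 (median 1.89) in aged group 3 and -4.64 to -1.55 (median -3.18) in young, or 21 to 212 reads in aged group 3 and 1 to 11 reads in young. The groups did not overlap (4.68 ± 0.52, adjusted p = 4.36e-06), and the young values rest on few reads. Gm45104, farther along the chromosome at chr7:18401677-18404544, held 0.57 to 1.93 (median 1.63) in aged group 3 and -0.46 to 0.82 (median -0.19) in young (1.50 ± 0.24, adjusted p = 0.000447), with 9 of 10 aged libraries above every young one.

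Gm3045, whose promoter with a single CpG is printed above, gained H3K27ac at its own start, 10647 bases from that of Slc25a48, a mitochondrial carrier. Levels were 1.61 to 2.54 (median 2.05) in aged group 3 and -0.47 to 1.61 (median 0.19) in young, with the highest young library just under the lowest aged one (1.80 ± 0.24, adjusted p = 4.47e-05). 9230116L04Rik also gained at its own start (chr12:79101851-79104730), with 0.34 to 2.07 (median 1.73) in aged group 3 and -0.90 to -0.13 (median -0.59) in young (2.04 ± 0.28, adjusted p = 8.33e-05). H3K4me3 at the Slc25a48 start rose by 0.59 ± 0.20 (adjusted p = 0.0289), and that at the start of Pigh, 12098 bases from 9230116L04Rik, changed by -0.12 ± 0.07 (adjusted p = 0.211).

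Gm43064 (chr3:103837653-103840944) held 1.35 to 2.35 (median 2.26) in aged group 3 and 0.35 to 1.43 (median 0.97) in young H3K27ac (1.19 ± 0.17, adjusted p = 0.000179). A further peak of this name lies within 1 kb of the start of Bcl2l15, of the Bcl-2 family, where H3K4me3 averaged 2.90 in aged group 3 and -0.08 in young (2.98 ± 0.44, adjusted p = 4.58e-05). Gm37820 (chr14:61686826-61688934) held 0.30 to 2.63 (median 2.01) in aged group 3 and -0.90 to 0.80 (median -0.29) in young (2.02 ± 0.32, adjusted p = 0.000472).

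Among the named H3K27ac losses, Gm48500 (chr13:60466419-60468313) held 0.70 to 1.68 (median 1.00) in aged group 3 and 1.70 to 2.27 (median 2.01) in young (-0.91 ± 0.14, adjusted p = 0.000447). A530001N23Rik, on the same stretch at chr13:60487352-60489701, held 0.80 to 2.03 (median 1.00) in aged group 3 and 1.95 to 2.49 (median 2.26) in young (-0.98 ± 0.19, adjusted p = 0.002). In this stretch 3 of 4 member H3K27ac peaks were called lower, while the H3K4me3 peak of Gm48500 at chr13:60479144-60481457 was called higher (0.51 ± 0.17, adjusted p = 0.0289). That H3K4me3 peak overlaps a different Gm48500 H3K27ac peak, which changed by -0.32 ± 0.14 (adjusted p = 0.0905). H3K4me3 at the start of Dapk1, the nearest coding start, was lower as well (-0.45 ± 0.11, adjusted p = 0.005).

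Gm49380 (chr9:44096358-44097055) held -1.24 to 0.75 (median 0.12) in aged group 3 and 1.20 to 1.82 (median 1.52) in young (-1.49 ± 0.24, adjusted p = 0.0005), at a median of 15 reads. 4930503F20Rik lies 113351 bases from Gdf10, a ligand of the TGF-beta superfamily, and fell by 1.28 (adjusted p = 0.0019), and the H3K4me3 of the Gdf10 start fell as well (-1.26 ± 0.30, adjusted p = 0.00307). Gm40438 lies 66182 bases from Dact1, an antagonist of Wnt signalling, and fell by 1.05 (adjusted p = 0.00194), as did the Dact1 start (-0.99 ± 0.20, adjusted p = 0.00099). The other named losses were 9930104L06Rik (-1.21 ± 0.22, adjusted p = 0.00128), Gm36210 (-1.03 ± 0.20, adjusted p = 0.0018) and Gm47467 (-0.78 ± 0.15, adjusted p = 0.00198). H3K4me3 at the coding starts nearest to these was not called: it changed by 0.24 ± 0.09 at Cdca8 beside 9930104L06Rik (adjusted p = 0.0516), by -0.03 ± 0.05 at Zfp628 beside Gm36210 (adjusted p = 0.712) and by -0.11 ± 0.05 at Zfp825 beside Gm47467 (adjusted p = 0.092).

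With the marker score as a covariate 6 of the 20 named H3K27ac calls held: Gm2619, Gm5155, 9530026P05Rik, Gm16025, Gm3045 and 2810410L24Rik, at adjusted p between 0.00125 and 0.0325. All 14 that did not pass kept their direction at a smaller change, such as 1.32 with the covariate and 2.04 without it at 9230116L04Rik (adjusted p = 0.0671 with it), 1.67 and 2.41 at C130026I21Rik (0.128), -0.88 and -0.99 at 2900052L18Rik (0.0714), -1.32 and -1.49 at Gm49380 (0.0786) and -0.31 and -0.98 at A530001N23Rik (0.582).

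Both marks were then compared at the 2925 H3K4me3 members that overlap an H3K27ac peak, measured in the same animals. Both were called higher in aged group 3 at 247 peaks, which is 51.2% of the 482 such H3K4me3 gains and 67.9% of the 364 H3K27ac gains. Both were called lower at 238, which is 58.5% of 407 H3K4me3 losses and 44.7% of 532 H3K27ac losses. Over all overlapping peaks of the series the shares for gains were 47.8% and 67.4% and those for losses 57.5% and 47.9%. At the named H3K4me3 peaks, Gm47015 (1.12, adjusted p = 0.00327), Gm13481 (0.89, adjusted p = 0.000484), Gm12576 (1.44, adjusted p = 0.00348) and Gm11830 (0.55, adjusted p = 0.00482) also rose in H3K27ac, and 8430419K02Rik (-1.12, adjusted p = 0.00261), Gm28308 (-0.96, adjusted p = 0.00339) and Gm43439 (-0.86, adjusted p = 0.00286) also fell.

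Calls in opposite directions were made at 4 of 2925 overlapping members, named here after their values were seen, and at 31 of 20883 overlapping peaks of the whole series. Gm23269 and Gm49361 were higher in H3K4me3 (0.29 and 0.68) and lower in H3K27ac (-0.32 and -0.64). Gm17494 and 1700026J14Rik were lower in H3K4me3 (-0.27 and -1.14) and higher in H3K27ac (0.65 and 1.03), and the H3K27ac peak at 1700026J14Rik is named for Zfp862-ps.

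**Figure D4:**
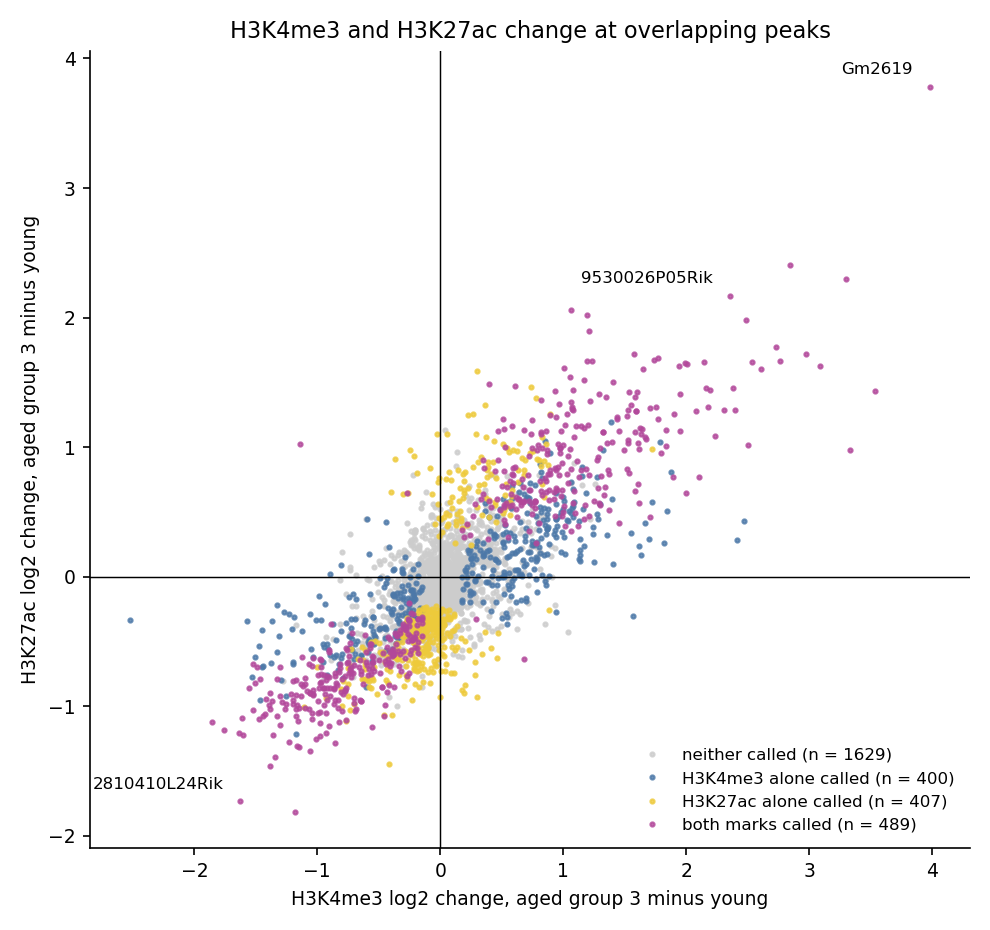
Log2 change of H3K4me3 (horizontal axis) and of H3K27ac (vertical axis), aged group 3 minus young, at the 2925 member H3K4me3 peaks that overlap an H3K27ac peak, a point per pair. Pairs called in both marks lie almost all in the quadrants of equal sign, and Gm2619, 9530026P05Rik and 2810410L24Rik are labelled.

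Some names held many peaks. Gm37240, a gene model on chromosome 3 that RefSeq does not list, had 15 H3K4me3 peaks and 44 H3K27ac peaks over 1294216 bases, of which 6 and 17 were called higher and 0 lower in either mark. Its H3K4me3 changes ran from -0.18 to 3.27, and the highest, at chr3:85277739-85278654, averaged 1.91 in aged group 3 and -1.35 in young (3.27 ± 0.44, adjusted p = 1.27e-05). Gm42416 on chromosome 18 had the most H3K4me3 peaks, 28, of which 3 were called higher and 2 lower. Spans this long may hold the starts of other genes, which are not listed here. The peaks and calls therefore go with the deposited name and cannot be credited to the gene model itself. The lncRNA 2610307P16Rik had 32 H3K27ac peaks, 2 higher and 5 lower, and the lncRNA Gm31135 had 18, 6 higher and 1 lower.

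The intermediate ages were compared with young to ask when members began to differ. Aged group 2 differed from young at 17 H3K4me3 members, 16 higher and 1 lower, beside 0.217% of all peaks, 0.205% higher and 0.0116% lower, which amounts to 56 peaks. The members were Gm2619, Gm13481, Gm37240, Gm43064, Gm11830, 2310081O03Rik, Gm11229, 9530026P05Rik, Gm45846, Gm45734, Gm47015, Gm47962, Gm47754, Gm49965, Gm8189 and Gm6829 among the gains and Gm44341 as the loss. In H3K27ac, Gm2619 (2.61 ± 0.41, adjusted p = 0.0109), Gm5155 (3.42 ± 0.59, adjusted p = 0.0292) and 9530026P05Rik (1.68 ± 0.30, adjusted p = 0.0493) were called, all higher, beside 0.011% of all peaks. These counts depended on single libraries. The counts that follow are of members alone, without the shares of all peaks in the same fits, and do not compare members with other peaks. In H3K4me3, 5 members were called without aged group 2 replicate 1, 7 without its replicate 3 or 5, 9 without its replicate 4 or 6, 8 without young replicate 1 or 2, 9 without young replicate 3 and 11 without young replicate 7. In H3K27ac, 0 were called without aged group 2 replicate 5, and 1 without its replicate 4 or 6 or young replicate 1, 3, 6 or 7.

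Gm45734 was the earliest of these. Aged group 1 differed from young at this peak alone among all 25827 H3K4me3 peaks (0.00387% of all peaks), and it is named here after its values were seen. Its mean level was -0.21 in young, 1.45 in aged group 1, 1.80 in aged group 2 and 1.97 in aged group 3. The 4 libraries of aged group 1 lay between 1.13 and 1.76, above every young library, and the change was 1.66 ± 0.28 (adjusted p = 0.0463), beside 2.01 ± 0.25 for aged group 2 (adjusted p = 8.42e-05). The call in aged group 1 was lost without 9 of the 11 libraries of both groups, each left out in turn, while that in aged group 2 held at adjusted p up to 0.01 in each alternative fit.

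Gm13481 had a similar course of means, with 2.20 in young, 3.07 in aged group 1, 3.06 in aged group 2 and 3.31 in aged group 3. Its change in aged group 1 was 0.87 ± 0.16 and was not called (adjusted p = 0.111). In aged group 2 its change was 0.86 ± 0.14 (adjusted p = 0.00514). Gm8189 had means of 3.29, 3.77, 3.94 and 4.11 in the order of age (0.66 ± 0.12 in aged group 2, adjusted p = 0.00852). 9530026P05Rik had means of 0.46, 1.47, 2.15 and 2.82 (1.68 ± 0.30 in aged group 2, adjusted p = 0.00965), and Gm2619 -1.62, 0.18, 0.71 and 2.36 (2.33 ± 0.45, adjusted p = 0.0166). Gm44341 (chr13:51202598-51203219) held -0.04 to 1.28 (median 0.32) in aged group 2 and 1.26 to 2.48 (median 1.84) in young (-1.45 ± 0.32, adjusted p = 0.0455), at a median of 13 reads. Of the 5 peaks named by p in aged group 2 (Gm45734, Gm13481, Gm8189, 9530026P05Rik and Gm44341), that of Gm45734 alone held once the mouse number series was a factor in the fit. This series nearly coincides with the split between young and aged group 2, so the fit can hardly separate it from age. Among the losses in aged group 3, 2810410L24Rik had means of 4.11, 3.78, 3.31 and 2.48 in the order of age.

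**Figure D5:**
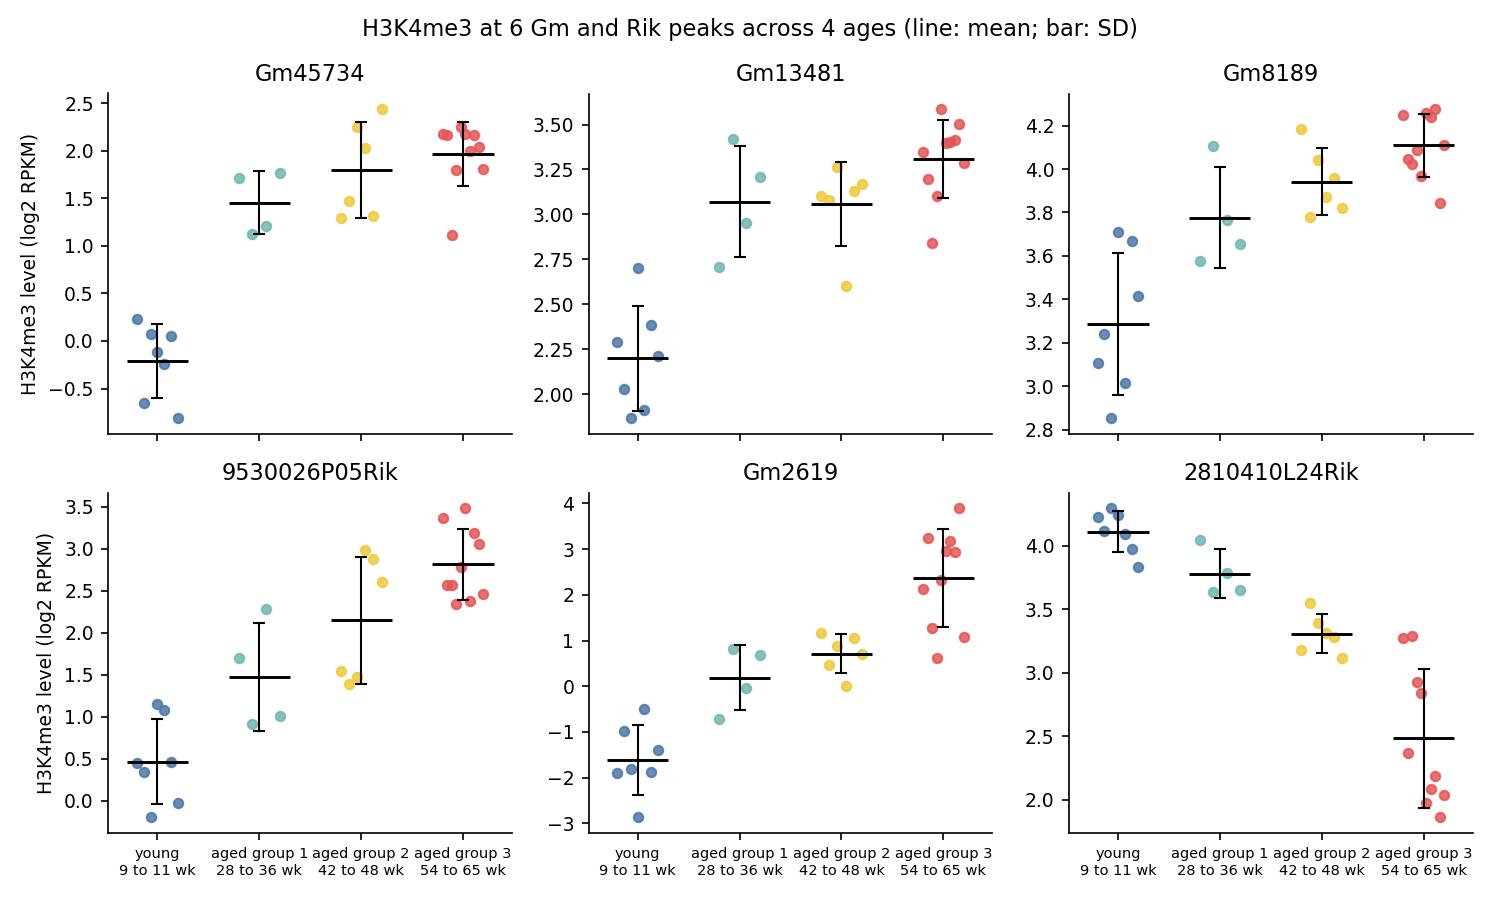
H3K4me3 level (log2 RPKM) in each library at 6 member peaks, by age group from young to aged group 3 (points, libraries; lines, group means; bars, SD). Gm45734 and Gm13481 have means of 1.45 and 3.07 in aged group 1 and -0.21 and 2.20 in young. This difference was called at Gm45734 and not at Gm13481. 2810410L24Rik has means of 4.11, 3.78, 3.31 and 2.48 in the order of age.

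Members called in aged group 3 had smaller differences of the same sign at the earlier ages. Among the 579 called higher in H3K4me3 the median change from young was 0.19 in aged group 1, 0.38 in aged group 2 and 0.93 in aged group 3, and among the 593 called lower it was -0.12, -0.25 and -0.76. These contrasts share the young libraries. The step from aged group 1 to aged group 2 does not use them: the mean was higher in aged group 2 at 462 of the members called higher (79.8%) and at 151 of those called lower (25.5%), against 50.5% of all members. In H3K27ac these shares were 80.2% and 31.2%, against 50.2%. Over all called peaks of the series they were 79.1% and 23.1% in H3K4me3 and 80.5% and 28.3% in H3K27ac, close to the shares of the members. Peaks are not independent of each other, and the step rests on 4 animals of aged group 1 and 6 of aged group 2. The median marker score was -0.35 in aged group 1 and -0.02 in aged group 2 in H3K4me3, and -0.37 and -0.27 in H3K27ac, in overlapping ranges. Its part in these shares was not tested.

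Between aged group 2 and aged group 1, limma called 0 members in either mark (0.0% of all peaks), with 111 H3K4me3 and 170 H3K27ac members at an unadjusted p under 0.05. For aged group 1 against young in H3K27ac it called 0 (0.0% of all peaks), with 321 at an unadjusted p under 0.05. Aged group 3 differed from aged group 2 at 11 H3K4me3 members, 1 higher and 10 lower, beside 0.205% of all peaks, 0.0542% higher and 0.151% lower, and at 0 H3K27ac members (0.0% of all peaks, 1308 at an unadjusted p under 0.05). Gm42707 was higher, with 1.27 to 2.85 (median 2.00) in aged group 3 and 0.19 to 1.66 (median 0.41) in aged group 2 (1.37 ± 0.27, adjusted p = 0.0405). 2310014F06Rik (chr7:112620230-112621360), 57996 bases from the start of Tead1, a transcription factor of the Hippo pathway, held 1.85 to 3.36 (median 2.25) in aged group 3 and 2.95 to 3.69 (median 3.26) in aged group 2 (-0.92 ± 0.19, adjusted p = 0.0405). 8430419K02Rik (-1.09 ± 0.20) and Gm28308 (-1.11 ± 0.23) fell at the same adjusted p. All 4 calls were lost with the values as deposited (highest adjusted p = 0.103) and with the marker score as a covariate (highest adjusted p = 0.441). The count of 11 was set by single libraries. It became 279 members without aged group 3 replicate 10, 172 without its replicate 4, 158 without its replicate 3 and 16 without its replicate 1. Without aged group 2 replicate 5 it was 140, and without each of the other 11 libraries of these groups it was 0. Shares of all peaks in these fits are not given, so these counts do not compare members with other peaks.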

How the data were processed

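H3K4me3 and H3K27ac were profiled in 27 uteri each. Bowtie2 and the build GRCm38 stand in the submitters' processing notes, which further list deepTools 3.5.1, DiffBind 3.8.0, MACS2 2.2.9.1, ChIPseeker 1.34.1 and DESeq2 with no role or order. The authors deposited log2 RPKM values, which scale reads by peak length and library size, over a set of peaks common to all libraries of a mark. Low values gave whole reads within 0.05 in 100.0% of cases, with peaks without reads at the value of 0.9 reads, which gave the totals per library and the reads quoted. Peaks held 36.3% to 75.8% of the reads of H3K4me3 libraries and 32.3% to 48.7% of those of H3K27ac libraries. The 5 other samples were not used here.

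The values of each mark were quantile normalized, then fitted by limma 3.58.1 in R 4.3.3 (4 group means, empirical Bayes with the mean-variance trend, two-sided). P-values were adjusted by Benjamini-Hochberg over every peak of a mark, with a threshold of 0.05. The fit was tested on simulated data. Each animal gave a single library per mark, so p-values also hold differences in library preparation. Gene types, starts and promoter windows came from RefSeq tables of GRCm38.p6, matched by symbol and chromosome, and each name had a single start. Tables were joined with pandas 2.3.3 in Python 3.11.15, and exons and introns were not analysed here. Results at 1 coding start near a named peak are not reported here.

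The members, marker lists and tests were chosen with earlier results of these data known. Named peaks were, per mark and direction, the 10 called peaks with the smallest p for aged group 3 against young, 1 peak per name, leaving out peaks whose higher group mean lay under the lower quartile. Up to 4 per direction were taken for aged group 2 against young and up to 3 for the other contrasts, with the 5 highest means. Stretches around them were described after their values were seen. Alternatives were the values as deposited, median centring, log2(RPKM + 1), a level filter, no trend, the library-code digit, the mouse number series, the marker score, a replicate block, a single peak per name and leaving out each library.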

Additional observations from a re-analysis of the deposited data

Results flagged for a closer look

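In 6 of 100 groups of the named peaks a single library stood apart from the rest of its group, and chance flags about 1 in 20 groups. In H3K4me3, aged group 3 replicate 3 had 1.12 log2 RPKM at Gm45734, with the next library at 1.79. Aged group 3 replicate 4 had 3.03 at 8430419K02Rik, with the next at 2.20, and aged group 2 replicate 4 had 2.60 at Gm13481, with the next at 3.08. In H3K27ac, young replicate 3 had -1.43 at 9530026P05Rik, with the next at -0.05. Aged group 3 replicate 1 had -1.24 at Gm49380, with the next at -0.25, and young replicate 4 had 1.69 at Gm40438, with the next at 2.12. The 2 aged libraries that stand apart at Gm45734 and 8430419K02Rik both lie toward the young levels.

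A difference between the changes from young in aged group 3 and aged group 2 equals the direct contrast of these groups described above. No further test was run. That limma contrast called 11 H3K4me3 members, beside 0.205% of all peaks, and 4 of them are named for it (adjusted p = 0.0405 each). The difference was 1.37 at Gm42707, -1.09 at 8430419K02Rik, -0.92 at 2310014F06Rik and -1.11 at Gm28308. All 4 calls were lost with the values as deposited.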

How the results depend on the processing

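Called members for aged group 3 against young numbered 1172 in H3K4me3 and 2357 in H3K27ac. They came to 711 in H3K4me3 with the level filter, 381 and 209 with the code digit as a factor, 405 and 291 without libraries of code digit 6, 553 and 1113 with the mouse number series, 40 and 12 with the marker score, and 1353 in H3K27ac with a single peak per name. Values as deposited gave 909 and 2769, with a shift of -0.14 in the median change of all peaks of each mark, and median centring 1233 and 2913. Leaving out each library of the 2 groups compared, here and below, gave 930 to 1431 and 1586 to 3110. No result changed sign in any alternative run. The 20 named H3K4me3 and 20 named H3K27ac calls held in each alternative but the marker score, of the 13 and 12 left to test by the level filter too.

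For aged group 2 against young, the 17 H3K4me3 members became 26 with median centring, 8 with log2(RPKM + 1), 7 with the level filter, 9 with the code digit, 4 without digit 6, 1 with the mouse number series and 5 to 15 on leaving out each library. The 3 H3K27ac members became 1 without the trend, 0 with log2(RPKM + 1), the level filter, the code digit, without digit 6 and the mouse number series, and 0 to 3 on leaving out each library. For aged group 1, the 1 H3K4me3 call became 0 with values as deposited, log2(RPKM + 1), the level filter, without digit 6, the mouse number series and the replicate block, and 0 to 2 on leaving out each library, and the 0 in H3K27ac became 1 with the marker score. For aged group 3 against aged group 2, the 11 H3K4me3 members became 20 with log2(RPKM + 1), 6 with the level filter, 29 with the mouse number series, 1 with the replicate block, 0 with values as deposited, the code digit, without digit 6 and the marker score, and 0 to 279 on leaving out each library, where H3K27ac gave 0 to 6. The 4 calls named there were each lost with values as deposited, the code digit, without digit 6, the marker score and the replicate block. The causes were not tested. Shares of all peaks in these alternatives are not given here, so the counts do not compare members with other peaks.

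The share of H3K4me3 members overlapping H3K27ac was 76.5% where a larger part of the peak had to be covered. Members at their own start were 64.4% and 50.4% within 5 kb and 52.1% and 30.3% with the level filter.

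The replicate block gave 1026 and 2397 members for aged group 3 against young. Equal replicate numbers in different groups belong to different animals, though in most aged libraries the replicate number equals the digit of the library code. Deviations of 31 same-numbered pairs correlated at -0.344 to 0.312 (median 0.037) in H3K4me3 and -0.356 to 0.533 (median 0.059) in H3K27ac. Of these pairs 8 and 12 were over 0.1, and other pairs had medians of -0.023 and -0.031. A weak link between same-numbered libraries is thus not excluded. With a median of 69 and 47 reads per member peak and library, depth limits the levels of the weakest members, such as Gm5155 in young.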
